A study of Mus musculus with 9 samples.

Results

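The mouse mitochondrial chromosome carries 37 genes, and these were taken from the deposited table of 52636 genes by their chromosome and by symbols that start with mt-. They comprise 13 messenger RNA genes, 2 ribosomal RNA genes and 22 transfer RNA genes. Copies of mitochondrial sequence in the nuclear genome were kept apart and are described only as copies. Of the 37 genes, 16 passed the filter on low counts: all 13 messenger RNA genes, both ribosomal RNA genes and the transfer RNA gene mt-Tp. The other 21, all transfer RNA genes, had a count of 0 in all 9 libraries.

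The 9 RNA-seq libraries came from cells of the nucleus accumbens, a ventral striatal region with a role in reward, sorted with an antibody against choline acetyltransferase from male C57BL/6 mice. The SUS group (3 libraries) and the RES group (3 libraries) came from mice with a history of intravenous cocaine self-administration (1.2 mg/kg in each infusion). Training on a fixed ratio allowed at most 40 infusions, and breakpoints under a progressive ratio were then measured on 10 days in sessions of 23 h. The naive group (3 libraries) came from mice that had no cocaine. The age of the mice is not given in the sources used here. Group names follow the sample titles. The behavioural phenotype field describes the RES libraries as susceptible and the SUS libraries as resilient, against the titles, so no difference here is read as susceptibility or resilience. Tissue from 2 to 3 mice was pooled per condition, and since separate pools for each library are not stated, the spread behind each p-value is that between libraries and may be technical.

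Total counts ran from 4471675 to 11155730 per library. The level of a gene was set against a background, the counts per kb of exon summed over 1092 olfactory receptor genes, which are not normally transcribed in this region. On this scale the 10 cholinergic marker genes had a median level per library of 1.04 to 2.08 times background, so their levels did not bear out the label, and the cells are called sorted accumbens cells. By the same measure microglial markers reached 1.72 to 48.5 times background, astrocyte markers 4.77 to 28.6, oligodendrocyte markers 2.16 to 15.3 and markers of medium spiny neurons 2.41 to 9.18. RES replicate 3 stood apart, with the highest scaling factor (1.58) and the largest share of nuclear counts at the background density (45.2%, against 21.6% to 33.9% in the other 8 libraries). All comparisons below are of bulk RNA, in which a change in the mix of cells and a change in RNA per cell cannot be told apart.

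The mitochondrial chromosome is read from both strands into long precursor RNAs by the polymerase Polrmt. Transfer RNAs punctuate the ribosomal and messenger RNAs, and their excision releases the RNAs on either side. The messenger RNAs encode core subunits of the respiratory chain and of ATP synthase, and the ribosomal RNAs build the organelle's own ribosome. All other subunits, and every protein that copies, cuts or translates these RNAs, come from nuclear genes. Neurons depend on the respiratory chain for most of their ATP. Fragments of the mitochondrial chromosome have also been inserted in nuclear chromosomes during evolution, and short reads can match both.

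A first pair of sequences is shown because the comparison of mt-Nd3 between groups depended on whether the counts of its nuclear copy were included. The beginning of mt-Nd3, a subunit gene of complex I, is given with the beginning of its nuclear copy Gm28438. The mitochondrial gene lies at chrM:9459-9806 on the plus strand, and the copy at chr1:24612775-24613119 on the minus strand (build GRCm38). Over the 345 aligned bases, the only difference was T3C, where the base of mt-Nd3 comes first and positions are counted from 1 at its first base. That base is in capitals in both sequences, which are from GENCODE transcripts.
mt-Nd3: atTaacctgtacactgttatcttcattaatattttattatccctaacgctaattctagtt
Gm28438: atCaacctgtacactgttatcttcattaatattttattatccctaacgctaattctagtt

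The mitochondrial genes took a large share of each library. In the SUS libraries they took 26.2%, 15.9% and 17.7% of all counts, in the RES libraries 28.7%, 11.5% and 9.09%, and in the naive libraries 19.2%, 27.0% and 17.1%. The group means were 20.0% ± 5.49 for SUS, 16.4% ± 10.7 for RES and 21.1% ± 5.22 for naive (SD, n = 3 each). The 3 groups overlapped, and RES held both the highest and the lowest library. The 95% Wilson interval of each share was at most 0.0411 percentage points to either side, which covers counting error only.

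Most of these counts were ribosomal RNA. The genes mt-Rnr1 (chrM:70-1024), for the RNA of the small ribosomal subunit, and mt-Rnr2 (chrM:1094-2675), for that of the large subunit, together held 80.1% to 85.6% of mitochondrial counts. The messenger RNAs held 14.4% to 19.9%, and mt-Tp 0.0141% to 0.0292%. The ratio of ribosomal to messenger counts was 5.92, 5.75 and 4.03 in the SUS libraries, 5.90, 5.94 and 4.97 in the RES libraries, and 5.96, 5.85 and 5.62 in the naive libraries. SUS replicate 3 and RES replicate 3 were below the other 7 libraries, and the groups overlapped. Per kb of gene, ribosomal RNA was counted 18.1 to 26.8 times as densely as messenger RNA. Between the 2 ribosomal RNAs, the level of mt-Rnr2 per kb was 0.902 to 1.27 times that of mt-Rnr1.

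**Figure D1:**
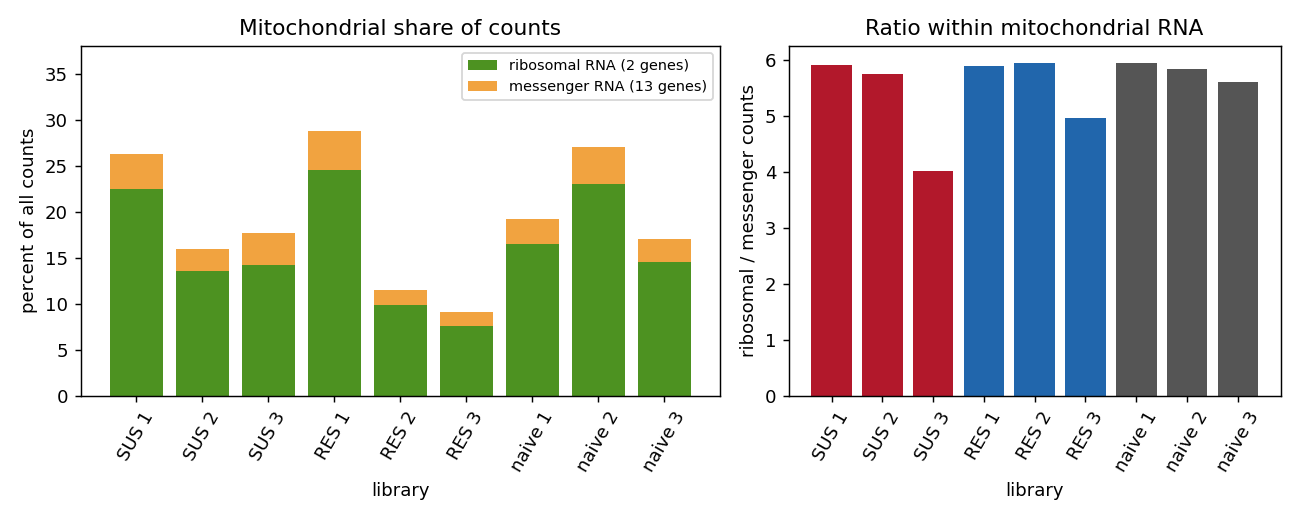
Left, the percent of all counts on mitochondrial ribosomal RNA (green) and messenger RNA (orange) genes in each of the 9 libraries; right, the ratio of ribosomal to messenger counts. The share runs from 9.09% in RES replicate 3 to 28.7% in RES replicate 1, and the ratio is lowest in SUS replicate 3 (4.03) and RES replicate 3 (4.97).

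Among the messenger RNAs, levels per kb fell into separate ranges. The 7 genes mt-Cytb, mt-Co1, mt-Nd1, mt-Nd5, mt-Nd2, mt-Nd6 and mt-Nd4, in falling order, averaged 40328 to 15883 counts per kb over the 9 libraries. The 6 genes mt-Nd3, mt-Atp6, mt-Co2, mt-Nd4l, mt-Co3 and mt-Atp8 averaged 1519 to 50.1 counts per kb. The lowest of the first set was 10.5 times the highest of the second. The level of mt-Cytb, the mitochondrial subunit of complex III, was 724 to 5138 times background, and that of mt-Co1, the catalytic subunit of cytochrome c oxidase (complex IV), was 597 to 4309 times background. By contrast, mt-Co3, another core subunit of complex IV, was at 1.95 to 16.1 times background, and mt-Co2, which receives electrons from cytochrome c, at 10.2 to 58.5 times. The complex I genes likewise spanned both ranges, from mt-Nd1 at 520 to 4045 times background to mt-Nd4l at 2.94 to 52.2 times. The 6 genes of low level are neighbours on the chromosome, where they run without interruption by another messenger gene from mt-Co2 to mt-Nd4l.

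**Figure D2:**
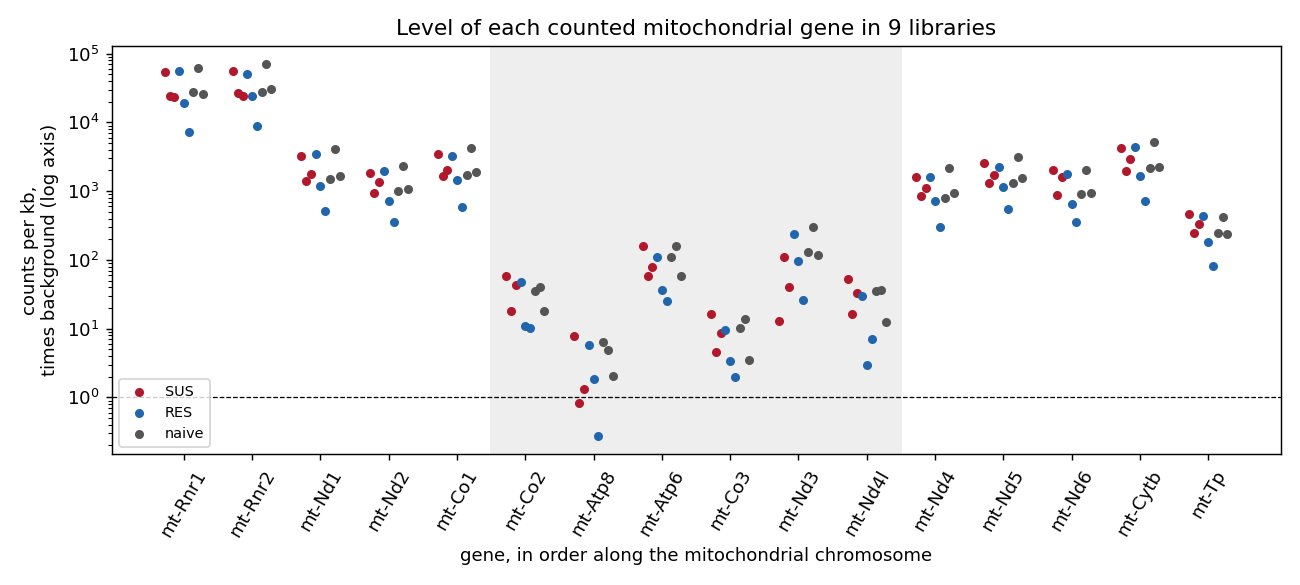
Level of the 16 counted mitochondrial genes in 9 libraries, as counts per kb over the background density on a log axis, in chromosome order; red, SUS; blue, RES; grey, naive. The shaded genes, mt-Co2 to mt-Nd4l, lie below all other messenger RNA genes, and the dashed line marks the background.

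The shares of the 7 abundant genes within the messenger RNA varied little between libraries. As a share of messenger counts, with no correction for length, mt-Co1 took 20.3% to 23.7%, mt-Cytb 19.5% to 22.4%, mt-Nd5 18.0% to 23.4%, mt-Nd1 11.3% to 14.4%, mt-Nd4 9.34% to 10.4%, mt-Nd2 7.79% to 9.38% and mt-Nd6 3.57% to 5.54%. The highest share was 1.11 to 1.55 times the lowest for these genes. Their scaled levels, in scaled CPM, counts relative to the library total and its scaling factor, varied by 4.69 to 6.36 times between the highest and the lowest library. The 6 genes of low level held 0.737% to 1.40% of messenger counts together.

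As a share of messenger counts, the widest relative spread among the 7 abundant genes was that of mt-Nd6. In scaled CPM the widest was that of mt-Nd1 (6.36 times, against 4.86 times for mt-Nd6). The gene mt-Nd6 encodes a complex I subunit and is the only messenger RNA gene on the minus strand (chrM:13552-14070). Its level per kb was 78.2%, 65.3% and 96.2% of that of mt-Nd5 in the SUS libraries, 78.9%, 56.7% and 64.6% in the RES libraries, and 70.1%, 64.7% and 60.2% in the naive libraries. SUS replicate 3 was highest, and the groups overlapped. Whether counting used strand is not given in the sources used here, so reads of mt-Nd6 cannot be told apart from antisense reads of the opposite strand's precursor.

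Transfer RNA genes gave almost no counts. All have lengths of 59 to 75 bases. For the 21 at 0, a count of 0 allows a share of up to 2.69e-05% to 6.71e-05% of the counts of a library, from a floor of 3 counts. This floor covers counting error only and does not bound the level of the transfer RNAs. Gaps between transfer RNA genes and their neighbours are at most 32 bases. Whether reads were left out for overlapping a neighbour was not tested. The 1 transfer RNA gene with counts, mt-Tp, encodes the transfer RNA for proline on the minus strand at chrM:15356-15422, the last annotated gene before the control region. Its sequence is shown since no other transfer RNA was counted, in lower case throughout.
mt-Tp: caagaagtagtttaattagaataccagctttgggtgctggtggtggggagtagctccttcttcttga
Its counts were 559, 295 and 418 in the SUS libraries, 366, 97 and 96 in the RES libraries, and 267, 170 and 342 in the naive libraries. Whether these counts come from the mature transfer RNA or from longer RNAs across it was not tested.

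The 6 genes of low level coincided with a block of near-identical copies on chromosome 1. Copies were sought by aligning the mitochondrial transcripts to all annotated transcripts, at 90% identity or more over 100 bases or more, which gave 16 nuclear genes of the table, 10 of them with a mean count of 100 or more. Of these, 7 gene models on the minus strand of chromosome 1 run in the order of the mitochondrial chromosome: Gm29216 (chr1:24615706-24616197, part of mt-Co1), Gm28661 (chr1:24614885-24615565, mt-Co2), Gm10925 (chr1:24613974-24614651, mt-Atp6), Gm28437 (chr1:24613189-24613971, mt-Co3), Gm28438 (mt-Nd3), Gm10222 (chr1:24612407-24612700, mt-Nd4l) and Gm28439 (chr1:24611535-24612410, the first 876 of the 1378 bases of mt-Nd4). Of the 7, 5 were identical to the mitochondrial gene over the aligned bases. Gm28438 and Gm29216 had 1 difference each, T3C and A1066T, with positions counted from the first base of mt-Nd3 and mt-Co1 and the mitochondrial base first. Between the copies of mt-Co2 and mt-Atp6 lie 233 bases, as many as between the aligned ends of these genes on the mitochondrial chromosome, where mt-Atp8 begins.

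For 5 genes (mt-Co2, mt-Atp6, mt-Co3, mt-Nd3 and mt-Nd4l) the copy spanned over 95% of the gene at 99% identity or more. The gene mt-Nd4l is shown as an example, with the stretch identical to Gm10222 in capitals, which is all of the gene but its last 3 bases.
mt-Nd4l: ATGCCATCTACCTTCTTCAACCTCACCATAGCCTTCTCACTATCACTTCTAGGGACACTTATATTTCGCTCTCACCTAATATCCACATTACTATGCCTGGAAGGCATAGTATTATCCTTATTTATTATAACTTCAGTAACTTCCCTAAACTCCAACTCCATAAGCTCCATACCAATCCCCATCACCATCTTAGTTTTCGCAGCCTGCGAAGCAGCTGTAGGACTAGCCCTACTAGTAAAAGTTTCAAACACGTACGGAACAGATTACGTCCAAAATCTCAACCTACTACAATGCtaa
A read from within these capitals fits both places. How such reads were counted is not given in the sources used here, so the counts of these genes and of their copies are uncertain.

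The lowest messenger gene, mt-Atp8, encodes a small subunit of ATP synthase and shares its last 43 bases with the start of mt-Atp6, the proton channel subunit. It is shown with that overlap in capitals.
mt-Atp8: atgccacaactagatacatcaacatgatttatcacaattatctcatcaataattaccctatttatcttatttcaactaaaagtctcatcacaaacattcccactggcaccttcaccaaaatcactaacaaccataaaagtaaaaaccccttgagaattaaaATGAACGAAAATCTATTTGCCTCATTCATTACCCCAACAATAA
Its counts were 29, 3 and 5 in the SUS libraries, 15, 3 and 1 in the RES libraries, and 21, 6 and 9 in the naive libraries. SUS replicates 2 and 3 and RES replicates 2 and 3 had at most 5 counts each, too few for a reliable ratio.

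The copy took most counts of the pair for 4 of these genes. Of the summed counts of gene and copy, Gm28437 took 84.7% to 89.0% beside mt-Co3, Gm28661 70.8% to 82.2% beside mt-Co2, and Gm10925 62.9% to 66.6% beside mt-Atp6. Gm10222 took 59.6% to 90.3% beside mt-Nd4l, the highest in RES replicate 2 with 65 counts on the copy and 7 on the gene. By contrast, the partial copies Gm29216 and Gm28439 took 1.04% to 3.44% beside mt-Co1 and 1.46% to 4.61% beside mt-Nd4. Adding the copy's counts to the gene did not bring these genes to the level of mt-Nd5. Reads that fit both places may be in neither count, so the sums cannot show the full level of these genes. The sums per kb were 9.49% to 23.1% of mt-Nd5 for mt-Atp6, 4.32% to 14.8% for mt-Co2, 3.70% to 17.4% for mt-Nd3, 2.63% to 8.43% for mt-Nd4l and 2.05% to 6.31% for mt-Co3. Copies elsewhere were less alike, such as Gm13340 on chromosome 2, with 97.6% identity to mt-Co1 and 327 to 3304 counts, and Gm4076 on chromosome 13 and Gm13339 on chromosome 2 had means of 127 and 146 counts.

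The pair of mt-Nd3 and Gm28438 differed from these 4 pairs, since the gene held most of its counts in 8 libraries and the copy only in SUS replicate 1. In SUS replicate 1 mt-Nd3 had 80 counts and the copy 2723, so that 97.1% of the pair's counts were on the copy (95% Wilson interval 96.5% to 97.7%). SUS replicates 2 and 3 had 679 and 265 counts on the gene against 223 and 142 on the copy, or 24.7% and 34.9% on the copy. The RES libraries had 1062, 269 and 160 counts on the gene and 170, 33 and 39 on the copy, or 13.8%, 10.9% and 19.6%. The naive libraries had 741, 635 and 867 counts on the gene and 189, 118 and 143 on the copy, or 20.3%, 15.7% and 14.2%. All 3 SUS libraries were above all 6 others in this share, SUS replicate 2 by little. Its 95% Wilson interval (22.0% to 27.6%) overlapped that of naive replicate 1 (17.9% to 23.0%). How often a share of this kind separates the groups was not tested. The other pairs of SUS replicate 1 were within the range of the other 8 libraries in the share of counts on the copy. In SUS replicate 1 the summed counts of mt-Nd3 and Gm28438 were 3.32% of those of mt-Nd5, against 0.706% to 2.40% in the other 8 libraries.

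**Figure D3:**
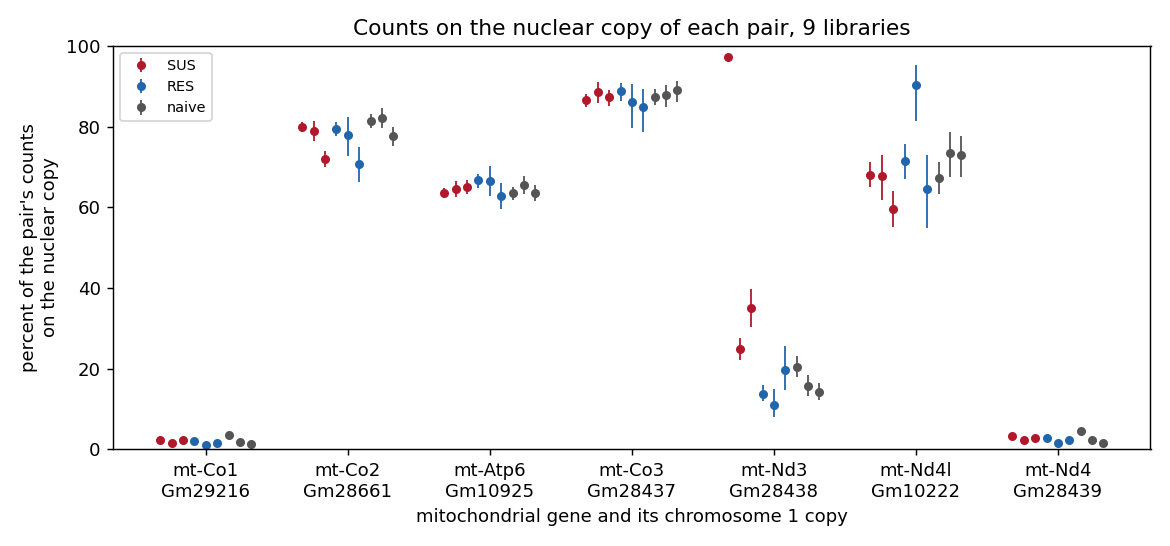
Percent of the summed counts of each mitochondrial gene and its chromosome 1 copy that were on the copy, in 9 libraries (red, SUS; blue, RES; grey, naive), with 95% Wilson intervals. The copy takes 59.6% to 90.3% for mt-Co2, mt-Atp6, mt-Co3 and mt-Nd4l, under 5% for mt-Co1 and mt-Nd4, and 10.9% to 34.9% for mt-Nd3 except in SUS replicate 1 (97.1%).

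The comparison of SUS with naive libraries asked how cocaine-exposed cells of this group differ from unexposed cells. No mitochondrial gene passed the adjusted threshold of 0.05 in the edgeR quasi-likelihood test with Benjamini-Hochberg adjustment over 39210 genes, where the share of all genes called was 0%. At an unadjusted p under 0.05 there was 1 mitochondrial gene of 16, mt-Nd3, against 1225 (3.12%) of all genes. DESeq2 and limma-voom likewise called 0 genes at the adjusted threshold, with 931 and 3225 of all genes and 0 and 1 of the mitochondrial genes at an unadjusted p under 0.05. The 13 messenger RNAs had a median log2 fold change of -0.02, with 6 above 0 and 7 below, against a median of 0.02 over all genes, of which 52.2% were above 0.

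The gene mt-Nd3 had scaled levels of 8.66, 75.3 and 32.0 CPM in the SUS libraries, against 98.8, 192 and 80.2 CPM in the naive libraries. All 3 SUS libraries were below all 3 naive libraries, an arrangement in that direction shared by 4.15% of all genes. It averaged 38.7 ± 33.8 CPM in SUS and 124 ± 59.9 CPM in naive libraries (SD, n = 3 each). The log2 fold change was -1.67 (SE 0.73), with unadjusted p = 0.0371 and adjusted p = 1.00 by edgeR. With the counts of Gm28438 added to the gene, the log2 fold change was 0.03 (SE 0.70). With the counts of mt-Nd3 alone it was -1.21 without SUS replicate 1 (unadjusted p = 0.116) and -2.60 without SUS replicate 2 (unadjusted p = 0.00272, adjusted p = 0.549 by edgeR). By limma-voom the log2 fold change of mt-Nd3 was -3.09 with adjusted p = 0.583, and by DESeq2 it was -1.68 with unadjusted p = 0.0819. As a share of messenger counts, mt-Nd3 took 0.0189%, 0.333% and 0.0930% in the SUS libraries, 0.370%, 0.355% and 0.214% in the RES libraries, and 0.387%, 0.361% and 0.315% in the naive libraries. On this scale SUS and naive overlapped, and SUS replicates 1 and 3 were lowest. The copy itself had a log2 fold change of 2.20 (SE 0.88, unadjusted p = 0.0249, adjusted p = 1.00 by edgeR), with 295, 24.7 and 17.2 CPM in the SUS libraries and 25.2, 35.7 and 13.2 CPM in the naive libraries. The value of SUS replicate 1 was above all others, and the groups overlapped.

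No other mitochondrial gene had groups that did not overlap between SUS and naive. The ribosomal RNAs had log2 fold changes of -0.14 (SE 2.34) for mt-Rnr1 and -0.19 (SE 2.88) for mt-Rnr2. Among the messenger RNAs the value was -0.07 (SE 1.09) for mt-Co1, 0.03 (SE 1.07) for mt-Cytb, 0.29 (SE 0.72) for mt-Nd6, -0.08 (SE 0.56) for mt-Atp6 and 0.33 (SE 0.60) for mt-Nd4l. Each of these was smaller than its standard error. In edgeR the median standard error was 0.84 for the 13 messenger RNAs and 0.34 over all genes. These errors belong to that fit. For mt-Rnr1 and mt-Rnr2 they were larger than the spread between libraries, an SD in log2 CPM over the 9 libraries of 0.93 and 0.83. A value below its standard error is therefore a weak yardstick for these 2 genes. DESeq2 gave nearly the same fold changes and called none of these genes. Its p-values were smaller except for mt-Nd4l, with unadjusted p = 0.726 for mt-Rnr2 where edgeR gave 0.949. For mt-Nd4l DESeq2 gave unadjusted p = 0.738 and edgeR 0.590.

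Between RES and naive libraries all 16 tested mitochondrial genes were below 0 in log2 fold change by edgeR. None passed the threshold in edgeR, where the share of all genes called was 0%. Over all genes 52.6% were below 0. The abundant messenger RNAs rose and fell together: shares varied by 1.11 to 1.55 times between libraries and scaled levels by 4.69 to 6.36 times. The 16 directions are therefore not 16 separate observations. By edgeR 0 mitochondrial genes had an unadjusted p under 0.05, against 361 (0.921%) of all genes, and likewise 0 by DESeq2 and by limma-voom. DESeq2 and limma-voom also called 0 genes. The 13 messenger RNAs had a median log2 fold change of -0.47 by edgeR, and all genes one of -0.02. By limma-voom the messenger median was -0.04, with 6 messenger RNAs above 0 and 7 below. For mt-Cytb the RES libraries had 10952, 3230 and 1899 CPM and the naive libraries 5350, 10813 and 5123 CPM. RES replicate 1 was above all naive libraries, and RES replicates 2 and 3 were below them, so the groups overlapped, as they did for each of the 16 genes, where 2.82% of all genes had RES libraries all below naive libraries. For mt-Cytb the log2 fold change was -0.40 (SE 1.07). The values were -0.47 (SE 1.09) for mt-Co1, -0.38 (SE 0.72) for mt-Nd6, -0.48 (SE 0.71) for mt-Nd3, -0.37 (SE 2.34) for mt-Rnr1 and -0.51 (SE 2.89) for mt-Rnr2. The value farthest from 0 was that of mt-Nd4l, with -0.92 (SE 0.64) and unadjusted p = 0.169, followed by mt-Atp6 with -0.81 (SE 0.56) and unadjusted p = 0.171, both with adjusted p = 1.00 by edgeR. Leaving out 1 library moved mt-Nd4l to between -2.27 (without RES replicate 1) and -0.45 (without RES replicate 2), and mt-Atp6 to between -1.81 (without RES replicate 1) and -0.47 (without RES replicate 3). Without RES replicate 1 the median of the 13 messenger RNAs was -1.53, without RES replicate 3 it was -0.07, and without naive replicate 2 it was -0.02.

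Between SUS and RES libraries 15 of the 16 genes were above 0, and none passed the threshold, with a share of all genes called of 0% in edgeR. Over all genes 51.2% were above 0, and here too the directions of the 16 genes are not separate observations. By edgeR 0 mitochondrial genes and 2227 (5.68%) of all genes had an unadjusted p under 0.05. DESeq2 and limma-voom called 0 genes, with 0 and 1 mitochondrial genes at an unadjusted p under 0.05. The 13 messenger RNAs had a median of 0.44, and all genes one of 0.01. The gene mt-Nd4l, for a small membrane subunit of complex I, had 30.2, 9.53 and 22.4 CPM in the SUS libraries, against 19.6, 1.50 and 4.81 CPM in the RES libraries, with overlapping groups. Its log2 fold change was 1.25 (SE 0.63, unadjusted p = 0.0638, adjusted p = 0.870 by edgeR), and with the counts of Gm10222 added it was 0.87 (SE 0.58). It was 2.59 without RES replicate 1 (unadjusted p = 0.000605, adjusted p = 0.580 by edgeR) and 0.77 without RES replicate 2. The only gene below 0 was mt-Nd3, with -1.19 (SE 0.72), and with the counts of Gm28438 added its value was 0.56 (SE 0.70). The value was 0.43 (SE 1.07) for mt-Cytb, 0.41 (SE 1.09) for mt-Co1, 0.67 (SE 0.73) for mt-Nd6, 0.73 (SE 0.56) for mt-Atp6, 0.23 (SE 2.34) for mt-Rnr1 and 0.32 (SE 2.88) for mt-Rnr2. Without RES replicate 1 the messenger median was 1.48, and without RES replicate 3 it was 0.05.

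**Figure D4:**
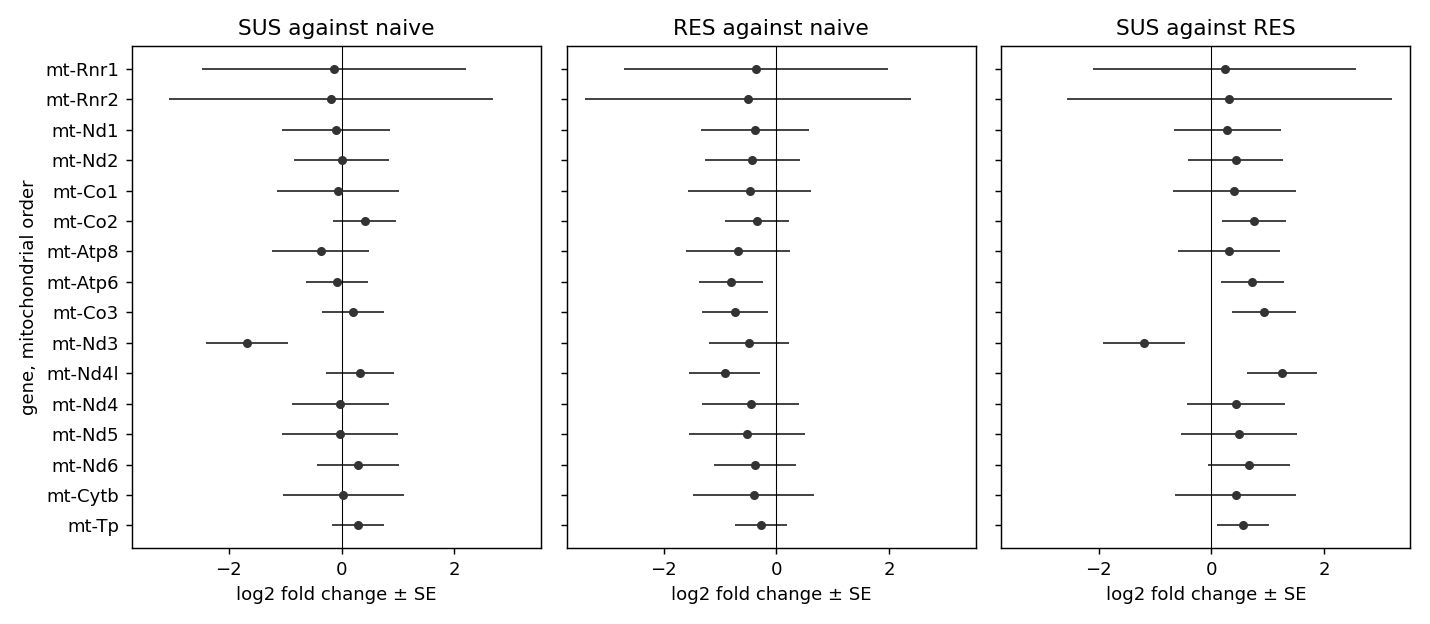
Log2 fold change with its standard error (bars) for the 16 tested mitochondrial genes in chromosome order, from edgeR, in SUS against naive, RES against naive and SUS against RES. All 16 points lie below 0 for RES against naive and 15 of 16 above 0 for SUS against RES, and mt-Nd3 lies apart in SUS against naive (-1.67).

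With both cocaine groups joined (6 libraries) and set against naive (3 libraries), 14 of the 16 mitochondrial genes were below 0, as were 48.6% of all genes, and none passed the threshold, with a share of all genes called of 0% in edgeR. By edgeR 0 mitochondrial genes and 541 (1.38%) of all genes had an unadjusted p under 0.05, and DESeq2 and limma-voom called 0 genes, with 0 mitochondrial genes at an unadjusted p under 0.05 in each. The messenger median was -0.22, against 0.01 over all genes. The value farthest from 0 was that of mt-Nd3, with -0.96 (SE 0.65, unadjusted p = 0.157, adjusted p = 1.00 by edgeR), and the counts of Gm28438 added gave -0.23 (SE 0.60). The values were -0.17 (SE 0.81) for mt-Cytb, -0.26 (SE 0.81) for mt-Co1, -0.00457 (SE 0.59) for mt-Nd6, -0.40 (SE 0.49) for mt-Atp6, -0.15 (SE 0.59) for mt-Nd4l, -0.25 (SE 1.63) for mt-Rnr1 and -0.34 (SE 1.96) for mt-Rnr2. The comparisons with naive share the same 3 naive libraries, and the directions of the 16 genes are not separate observations.

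Markers of 3 other cell types differed in the direction of the mitochondrial genes in RES against naive and in SUS against RES. Both comparisons use the same 3 RES libraries. Other lists did not follow: in SUS against RES, 10 of 12 astrocyte, 10 of 14 medium spiny neuron and 6 of 10 cholinergic markers were below 0. Their medians were -0.25, -0.09 and -0.13. In RES against naive 7 of 12, 7 of 14 and 5 of 10 of these markers were below 0. All 16 microglial markers were lower in RES than in naive libraries (median log2 fold change -1.34), and all 16 were higher in SUS than in RES libraries (median 2.12). In SUS against RES 11 of the 16 had an unadjusted p under 0.05 by edgeR, against 5.68% of all genes. None was called, and the groups overlapped for all 16 markers in both comparisons. The summed level of the microglial markers was 279 to 5508 CPM in the SUS libraries, 144 to 1733 CPM in the RES libraries and 316 to 3214 CPM in the naive libraries, and no marker was at 0 in any library. The 4 libraries in which the median microglial marker was below 4 times background, SUS replicate 2, RES replicates 2 and 3 and naive replicate 3, were the 4 with the lowest mitochondrial shares (15.9%, 11.5%, 9.09% and 17.1%). Among the other libraries the order differed. SUS replicate 3 had the highest microglial level (48.5 times background) with a share of 17.7%. RES replicate 1 had the highest share (28.7%) at 14.5 times background. Of 12 oligodendrocyte markers, 11 were lower in RES than in naive libraries (median -0.59), and all 12 were higher in SUS than in RES libraries (median 1.13). In SUS against RES 6 of the 12 had an unadjusted p under 0.05 by edgeR, against 5.68% of all genes. None was called, and the groups overlapped for all 12 markers in both comparisons. Their summed level was 591 to 2545 CPM in the SUS libraries, 298 to 893 CPM in the RES libraries and 421 to 1556 CPM in the naive libraries, with no marker at 0. Of 12 endothelial markers, 10 were lower in RES than in naive libraries (median -0.14) and 11 higher in SUS than in RES libraries (median 0.47), again with none called. Their summed level was 320 to 558 CPM in the SUS libraries, 247 to 351 CPM in the RES libraries and 321 to 330 CPM in the naive libraries, with no marker at 0. In the other comparisons the directions differed. In SUS against naive all 16 microglial and all 12 oligodendrocyte markers were above 0 (medians 0.86 and 0.46), where the mitochondrial messenger median was -0.02. In cocaine against naive all 16 microglial markers were above 0 (median 0.16), where 14 of the 16 mitochondrial genes were below 0. The part of these cells in the mitochondrial levels was not tested.

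The nuclear genes that maintain and express the mitochondrial genome gave no call in any comparison. Their levels were low. The median gene for transcription and copying was at 1.52 to 2.31 times background per library, where that of the cholinergic markers was at 1.04 to 2.08. Differences at such levels are uncertain. Of 20 genes for transcription and copying of the mitochondrial genome, 12 were above 0 and 8 below in SUS against naive, and 8 above and 12 below in RES against naive. Tefm, the elongation factor of the mitochondrial polymerase, had 6.17, 6.10 and 7.01 CPM in the SUS libraries, 6.84, 8.59 and 5.85 CPM in the RES libraries, and 4.67, 4.84 and 3.24 CPM in the naive libraries. All 6 cocaine libraries were above the naive libraries, an arrangement shared by 0.617% of all genes, and the log2 fold change was 0.69 (SE 0.24, unadjusted p = 0.0106, adjusted p = 1.00 by edgeR). For Polrmt, the polymerase itself, the same comparison gave -0.41 (SE 0.22). Rnaseh1, which removes RNA from RNA-DNA hybrids, had 14.0, 17.3 and 22.2 CPM in the SUS libraries, against 8.94, 12.2 and 9.49 CPM in the RES libraries. These groups did not overlap, as for 3.41% of all genes in this direction, and its log2 fold change was 0.81 (SE 0.24, unadjusted p = 0.00411, adjusted p = 0.870 by edgeR).

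The genes for further steps of the pathway are given by their counts. Their levels were low as well. Per library the median gene was at 1.58 to 2.82 times background for RNA cutting, modification and decay and 1.50 to 2.48 for ribosomal proteins. It was at 1.96 to 3.01 for translation factors, 1.56 to 2.86 for the synthetases and 1.40 to 3.51 for biogenesis. Of 33 tested genes for RNA cutting, modification and decay, 17 were above 0 in SUS against naive, 12 in RES against naive and 21 in SUS against RES, with medians of 0.02, -0.04 and 0.11. Of 76 tested proteins of the mitochondrial ribosome, 53, 31 and 58 were above 0 in these comparisons, with medians of 0.14, -0.03 and 0.15. Of 14 translation factors, 9, 6 and 9 were above 0, and of 17 mitochondrial aminoacyl-tRNA synthetases 11, 8 and 9. Of 12 regulators of mitochondrial biogenesis, 7, 1 and 9 were above 0, with medians of 0.03, -0.16 and 0.15. None of these genes was called.

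The nuclear subunits of the respiratory chain and of ATP synthase, the partners of the mitochondrial subunits, numbered 79, and none was called. In RES against naive 55 were below 0, with a median of -0.22, and in SUS against RES 67 were above 0, with a median of 0.31. In SUS against naive 63 were above 0, with a median of 0.15, where the mitochondrial messenger median was -0.02. The median member of each complex was at 1.80 to 6.15 times background per library, far below the 7 abundant mitochondrial messengers. Ndufs6, an accessory subunit of complex I, had 5.42, 4.43 and 7.98 CPM in the SUS libraries, against 2.67, 3.32 and 2.31 CPM in the naive libraries, and these groups did not overlap, as for 3.85% of all genes in this direction. Its log2 fold change was 1.14 (SE 0.37, unadjusted p = 0.00727, adjusted p = 1.00 by edgeR), and in RES against naive it was 0.94 (SE 0.38, unadjusted p = 0.0260, adjusted p = 1.00 by edgeR). The RES libraries had 6.31, 6.44 and 2.99 CPM and overlapped with the naive libraries.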

How the data were processed

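The authors deposited raw counts for 52636 mouse genes (Ensembl IDs) in 9 libraries, as unscaled whole numbers. Per the submitters' processing notes reads were handled on build GRCm38 with tools that include STAR 2.5.2b and HTSeq; the strand setting, the annotation release and the treatment of reads that fit several places are not given in the sources used here. Positions, lengths and sequences came from GENCODE mouse release M21 (GRCm38), which matched 52489 genes. After a filter on low counts (filterByExpr), genes were scaled by TMM factors (a trimmed mean of log ratios) and tested with the edgeR 4.0.16 quasi-likelihood F test (R 4.3.3), with 1 model of 3 groups for the pairwise comparisons and a model of 2 groups for cocaine against naive. Benjamini-Hochberg adjustment ran over all tested genes at 0.05. The standard error is the log2 fold change divided by the root of its F statistic, and CPM values are scaled by TMM. DESeq2 1.42.0, limma-voom with sample quality weights (limma 3.58.1), other scalings, no filter, only the groups compared, the replicate number as a block and leaving out each library were alternatives. Copies were found with BLAST 2.17.0. The edgeR step was checked on simulated data. No libraries of a group were duplicates: the chi-square per degree of freedom was at least 9.59. Between libraries of different groups it ran from 5.165 (RES replicate 1 and naive replicate 2) to 37.4 (SUS replicate 1 and RES replicate 3). Some libraries of different groups were thus closer than any of the same group, and the cause was not tested. Statistics are given for mt-Rnr1, mt-Rnr2, mt-Nd4l, mt-Atp6, mt-Nd3, mt-Cytb, mt-Co1 and mt-Nd6, copies are named from a mean count of 100, and at most 2 nuclear genes with the smallest p per list. The genes, the gene lists and this rule were chosen with earlier results of these data known.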

Additional observations from a re-analysis of the deposited data

Results flagged for a closer look

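Among the 6 cocaine libraries, 41 quantities were screened for a library far from the others, and such a screen marks about 1 in 20 by chance. The level of Gm28438, the chromosome 1 copy of mt-Nd3, was 295 CPM in SUS replicate 1, against 5.07 to 29.8 CPM in the other 5 cocaine libraries. The share of the summed counts of mt-Nd3 and Gm28438 that were on the copy was 97.1% in SUS replicate 1, against 10.9% to 34.9% in the other 5. Both values come from the same counts. Their origin was not tested.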

How the results depend on the processing

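The count of called genes was 0 in all 4 comparisons under all alternatives except scaling by library totals only, which called 1 gene in SUS against RES, Gm28438. No mitochondrial gene was called under any alternative. Library totals only moved the median of all genes by 0.25 in RES against naive, -0.22 in SUS against RES and 0.14 in cocaine against naive. Without ribosomal RNA the mitochondrial share averaged 3.91% in SUS, 3.01% in RES and 3.82% in naive libraries, since most mitochondrial counts are left out. Per kb the ratio of ribosomal to messenger RNA averaged 23.5, 25.2 and 26.1 in these groups, and with nuclear copies counted as messengers it was 5.61 in naive.

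Of 312 values of the named genes under alternatives that kept all libraries, 13 changed sign; the cause was not tested. In SUS against naive, limma-voom gave 0.27 for mt-Rnr1, 0.24 for mt-Rnr2, 0.29 for mt-Atp6 and 0.25 for mt-Co1, upper quartile scaling gave -0.00073 for mt-Cytb and library totals 0.012 for mt-Co1. In RES against naive, limma-voom gave 0.052 for mt-Rnr1, 0.0044 for mt-Cytb and 0.0011 for mt-Nd6, and in cocaine against naive library totals gave 0.087 for mt-Nd6. Adding copy counts, chosen after seeing the data, gave 0.028 in SUS against naive and 0.56 in SUS against RES for mt-Nd3. The messenger median in SUS against naive was 0.27 with limma-voom and 0.07 with library totals. In RES against naive the messenger median was -0.04 with limma-voom.

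Leaving out each library in turn changed the sign of 38 of 288 values. The messenger median ranged from -1.53 to -0.023 in RES against naive from 0.048 to 1.48 in SUS against RES, from -0.29 to 0.40 in SUS against naive and from -0.43 to 0.20 in cocaine against naive. The range for mt-Nd3 was -2.60 to -1.21 in SUS against naive, -1.65 to -0.013 in RES against naive, -2.12 to -0.032 in SUS against RES and -1.67 to -0.50 in cocaine against naive. In SUS against naive the other ranges were -0.59 to 0.29 for mt-Rnr1, -0.61 to 0.28 for mt-Rnr2, -0.061 to 0.69 for mt-Nd4l, -0.56 to 0.20 for mt-Atp6, -0.23 to 0.46 for mt-Cytb and -0.39 to 0.39 for mt-Co1. In RES against naive they were -1.59 to 0.070 for mt-Rnr1, -1.46 to 0.036 for mt-Cytb and -1.38 to 0.033 for mt-Nd6, and in SUS against RES -0.22 to 1.45 for mt-Rnr1 and -0.10 to 1.22 for mt-Rnr2. In cocaine against naive they were -0.56 to 0.18 for mt-Rnr1, -0.56 to 0.13 for mt-Rnr2, -0.54 to 0.21 for mt-Nd4l, -0.40 to 0.26 for mt-Cytb, -0.46 to 0.20 for mt-Co1 and -0.19 to 0.40 for mt-Nd6.

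Libraries with the same replicate number in their titles had deviations from the group means that correlated by -0.23 to 0.23, above 0.1 in 2 of 9 pairs. The labels name no batch, and correlations among so few libraries cannot tell whether libraries of the same number belong together. A fit with that number as a replicate block called 0 genes, and the messenger medians were -0.05 in SUS against naive, -0.74 in RES against naive, 0.70 in SUS against RES and -0.34 in cocaine against naive, with -0.029 for mt-Cytb in SUS against naive. Depth limits mt-Atp8, mt-Nd4l and mt-Co3, which had as few as 1, 7 and 21 counts in a library.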
